A study of Bos taurus with 25 samples.

Results

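The cytochrome P450, UDP-glucuronosyltransferase (UGT), flavin monooxygenase (FMO) and cytosolic sulfotransferase (SULT) genes were examined in liver and mammary gland of lactating dairy cows. Members were chosen by name. Every probe of the bovine array whose transcript accession carries a current symbol made of CYP with a family number, a letter and a number, or beginning with UGT1, UGT2, FMO1 to FMO5 or SULT, was taken, and the probes of a gene were averaged. This gave 46 genes on 110 probes, of 27841 names on 43653 probes. CYP7A1, CYP7B1 and CYP8B1 were not reached by accession and are not analysed here.

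Biopsies of both tissues were taken 64 ± 3 days after calving from multiparous Holstein cows of 1 research herd that had received weekly intramuscular injections of 5 mL from 3 weeks before expected calving. Control cows (Ctl) received saline of 0.9% NaCl, B9 cows received 320 mg of folic acid, B12 cows received 10 mg of vitamin B12 as cyanocobalamin, and B9 + B12 cows received both doses. In the liver there were 3 control, 3 B9, 4 B12 and 2 B9 + B12 arrays, and in the gland 3, 3, 4 and 3. The 12 liver arrays and 12 of the 13 gland arrays came from the same 12 cows, and 1 B9 + B12 cow, number 31, had a gland array alone. Each array held the RNA of 1 biopsy of 1 cow, labelled with a single dye.

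Cytochrome P450s are haem enzymes that insert oxygen into lipids, steroids, bile acid precursors, vitamins and foreign compounds. Microsomal P450s draw electrons from the reductase POR and from cytochrome b5, and mitochondrial P450s such as CYP27A1 and CYP11A1 draw them through FDXR and ferredoxin. UGTs then attach glucuronic acid and SULTs attach sulfate to the products, which makes them water soluble for bile and urine, while FMOs oxidise nitrogen and sulfur atoms without haem. In the liver these families carry most drug and steroid clearance, and in the udder they bear on which compounds reach milk.

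Between 64.4% and 84.2% of probes were well above background per array, no spot was saturated, and the array number limits the precision. The tissue labels were checked against defining markers. All 7 hepatocyte markers measured were higher in liver, with ALB, the serum albumin gene, 10.56 ± 0.29 (SE) higher on the log2 scale, and 6 of 7 mammary epithelial markers were higher in the gland, with casein CSN1S1 at -11.05 ± 0.24. The seventh, KRT18, was higher in liver by 3.45 ± 0.25. Markers of one tissue varied between arrays of the other. ALB ranged from 6.08 to 9.67 in the gland and CSN1S1 from 6.39 to 9.23 in liver. The source of this signal was not tested, nor was its share in member signal on few gland arrays. The 3 liver arrays of cows 32, 37 and 43 lay on a slide scanned on another day, with local background of 35 to 37 units against 16 to 20.5 on the other 22 arrays. The liver arrays of cows 57 and 32 stood apart from the rest, with a median correlation to the other liver arrays of 0.970 and 0.971 against 0.988 to 0.992 for the other 10.

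The 46 genes leaned to the liver. In the joint fit of all 25 arrays, 29 of 46 genes were called higher in liver, where a call needs a limma adjusted p of at most 0.05 and a 2-fold difference, and none was called higher in the gland. Over all 27841 names the same calls took 7.73% for liver and 8.91% for the gland. All 46 members have a current symbol, but only 11068 of the names do. No share was taken over those alone. The median liver minus gland difference of the 46 genes was 2.51 on the log2 scale, and the same with genes that have only a bound set at it, against -0.03 over all names. Of the 17 genes not called, 14 passed the adjusted p under 2-fold, 6 toward the liver and 8 toward the gland. Signals carry an offset of 50 units, which compresses dim signals, so folds of genes dim in the gland are understated. Members called for the liver but above background on only some gland arrays are given with that number of arrays and with no fold. Their log2 differences and SEs include gland values not above background, so they do not measure the size of the gap. "Above background" stands for the scanner's call of well above background. A gene counts as above background on an array if any of its probes does, and of the 27 members so counted on all 13 gland arrays 18 had another probe above background on fewer, so their averaged differences include dim probes. For all 29 called genes every liver array lay above every gland array, as for 91.2% of all names called for the liver. In bulk tissue, fewer cells of a type and less RNA per cell cannot be told apart. Nearly identical paralogs, such as the CYP2C, CYP2D, CYP3A, CYP4A, UGT2 and SULT1 genes and the shared exons of UGT1A genes, may share signal between probes, and their cross-hybridisation was not tested.

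**Figure D1:**
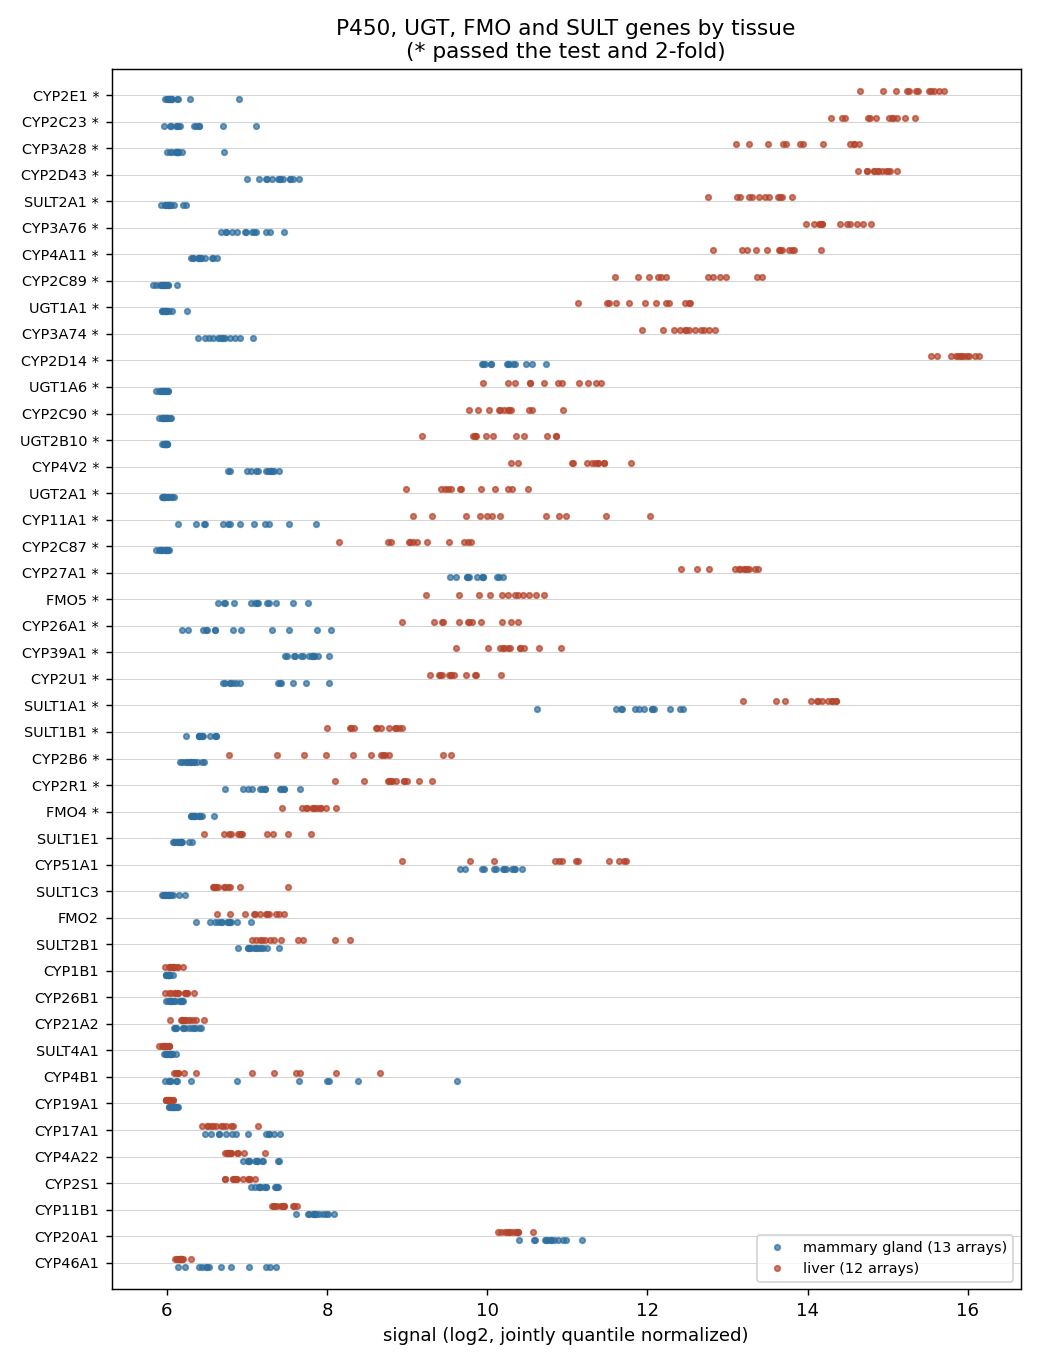
Signal of 45 of the 46 genes on every array (x axis, log2 after joint quantile normalization); each row is a gene, red points are the 12 liver arrays and blue points the 13 gland arrays, and rows are compared within a gene only. The 28 genes marked with an asterisk have all red points to the right of all blue ones, and no gene has a marked difference toward the gland.

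In liver, 41 of 46 genes had a probe well above background on all 12 arrays, 4 on some, and SULT4A1, a brain-type sulfotransferase, on none. In the gland, 27 genes were detected on all 13 arrays, 11 on some and 8 on none. Of the 36 genes with several probes, all probes of 30 agreed on the direction of the tissue difference.

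The CYP2 and CYP3 genes, which include the main drug-oxidising enzymes of the liver, had the widest gaps. Leaving out CYP2R1 and CYP2U1, given with vitamin D and the other P450s, 11 of 12 genes were called higher in liver, with a median difference of 6.18 (the same with bounds). CYP2E1, the ethanol- and ketone-inducible P450, ranged from 14.66 to 15.70 (median 15.36) in liver and from 5.97 to 6.90 (median 6.05) in the gland, where 4 of 13 gland arrays were above background. That is a difference of 9.20 ± 0.11 (SE) (limma adjusted p = 1.03e-29). CYP2C23, a member of the CYP2C subfamily known for fatty acid epoxidation, ranged from 14.29 to 15.34 (median 14.94) against 5.96 to 7.11 (median 6.16), a difference of 8.57 ± 0.12 (SE). On the gland side it was above background on 8 of 13 gland arrays.

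The CYP3A genes, whose enzymes oxidise steroids and many drugs, all favoured the liver. CYP3A28 spanned 13.11 to 14.65 (median 13.92) in liver and 6.01 to 6.71 (median 6.13) in the gland, 7.82 ± 0.15 (SE) apart, with 3 of 13 gland arrays above background. CYP3A76 spanned 13.98 to 14.79 (median 14.29) against 6.67 to 7.46 (median 6.99), 7.35 ± 0.10 (SE) apart. CYP3A74 spanned 11.93 to 12.84 (median 12.50) against 6.39 to 7.08 (median 6.68), 5.80 ± 0.09 (SE) apart. Counted by any probe, CYP3A76 and CYP3A74 were above background on all 13 gland arrays. Their single probes were on 1, 13, 13 and 8 gland arrays for CYP3A76 and on 10, 13 and 1 for CYP3A74. CYP3A28 has 1 probe, so its count is not comparable with theirs. The 3 probes of CYP3A74 gave differences from 3.18 to 8.37, so the size of that gap differed by probe.

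Both CYP2D genes, relatives of the human debrisoquine hydroxylase, were detected on every array of both tissues. CYP2D43 ran from 14.63 to 15.12 (median 14.88) in liver and 6.998 to 7.65 (median 7.41) in the gland, 7.51 ± 0.06 (SE) apart or 182-fold (limma adjusted p = 2.88e-32). CYP2D14 was 5.65 ± 0.09 (SE) higher in liver, 50.1-fold, from 10.24 ± 0.25 (SD, n = 13) in the gland to 15.89 ± 0.18 (SD, n = 12). The between-array SD of both genes in liver, 0.14 and 0.18, was small beside those gaps. Among the other CYP2C genes, CYP2C89 spanned 11.59 to 13.43 (median 12.50) in liver against 5.83 to 6.13 (median 5.95), 6.57 ± 0.16 (SE) apart, with a single gland array above background. CYP2C90 and CYP2C87 were above background on no gland array and so have only bounds. Here and below, the p beside a bound tests the measured values, not the bound. The 2 probes of CYP2C90 gave measured differences of 2.64 and 5.91. CYP2C90 was at 9.77 to 10.95 (median 10.24) in liver, at least 18.8-fold higher (limma adjusted p = 1.48e-24). CYP2C87 was at 8.14 to 9.80 (median 9.10) in liver, at least 8.96-fold higher (limma adjusted p = 1.07e-17).

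CYP2B6, the phenobarbital-responsive P450, differed by less and varied more, with liver values from 6.78 to 9.54 (median 8.61) and gland values from 6.17 to 6.47 (median 6.30), 2.08 ± 0.22 (SE) apart. CYP2S1, an extrahepatic P450, was the exception of the group. It was measured on all arrays, and its difference of -0.33 ± 0.05 (SE) lay toward the gland and under 2-fold. Of its 3 probes, the one above background on all arrays gave -0.97, and the other 2, above background on 3 and 5 liver and 0 and 3 gland arrays, gave -0.0020 and -0.0084. CYP1B1, the only CYP1 gene reached, was above background on 7 liver arrays and 1 gland array, at 6.08 ± 0.06 and 6.02 ± 0.03.

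The 4 CYP4 genes, enzymes of fatty acid omega-hydroxylation, split. CYP4A11, a PPARα target in liver, ran from 12.82 to 14.17 (median 13.65) in liver and 6.30 to 6.63 (median 6.40) in the gland, 7.12 ± 0.10 (SE) apart. Its 4 probes gave differences from 5.02 to 8.69, and 2 of them were above background on only 1 and 5 gland arrays. CYP4V2 was 4.03 ± 0.13 (SE) higher in liver. CYP4A22 differed by -0.29 ± 0.05 (SE) and was not called. Of its 3 probes, the one above background on all arrays gave -0.86. The other 2, above background on 0 and 3 liver arrays and on no gland array, gave -0.04 and 0.04. CYP4B1 differed by -0.06 ± 0.41 (SE), less than its spread between cows, and is described by cow after the tissue results.

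Among the P450s of bile acids and cholesterol, CYP27A1, the mitochondrial sterol 27-hydroxylase of the acidic bile acid pathway, ranged from 12.42 to 13.38 (median 13.18) in liver against 9.54 to 10.20 (median 9.87) in the gland, 3.20 ± 0.10 (SE) apart or 9.19-fold (limma adjusted p = 2.77e-20). Its 4 probes gave 3.09 to 3.43. CYP39A1, the oxysterol 7α-hydroxylase, was 2.57 ± 0.10 (SE) higher in liver. CYP51A1, the lanosterol demethylase of cholesterol synthesis, overlapped between tissues, at 8.94 to 11.73 (median 11.02) in liver and 9.66 to 10.43 (median 10.20) in the gland, 0.74 ± 0.24 (SE) apart, which passed the test (limma adjusted p = 0.00849) but not 2-fold. CYP46A1, the brain cholesterol 24-hydroxylase, lay toward the gland by -0.53 ± 0.11 (SE), with gland values from 6.14 to 7.36 (median 6.52) against 6.10 to 6.30 (median 6.17) in liver. Its size depended on the scaling. With processed signals divided by each array's 75th percentile it was -2.24, and with background-corrected signals scaled so -1.41, both called for the gland. The median of all names was then -0.59 and -0.90.

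Vitamin and hormone P450s were mixed. CYP2R1, the microsomal vitamin D 25-hydroxylase, was 1.60 ± 0.11 (SE) higher in liver (3.03-fold). CYP26A1, which degrades retinoic acid, was 2.85 ± 0.20 (SE) higher in liver, with liver values from 8.93 to 10.38 (median 9.77) and a wide gland range of 6.19 to 8.05 (median 6.60). CYP26B1, its relative, was above background on 5 liver arrays and no gland array, at 6.15 ± 0.11 and 6.10 ± 0.07, and did not pass the test (limma adjusted p = 0.205). CYP11A1, the cholesterol side-chain cleavage enzyme that begins steroid synthesis, was 3.47 ± 0.27 (SE) higher in liver on 3 probes that all pointed the same way, from 9.07 to 12.03 (median 10.11) against 6.13 to 7.86 (median 6.79).

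The 4 other steroidogenic P450s, CYP11B1, CYP17A1, CYP19A1 (aromatase) and CYP21A2, differed by -0.42 to 0.00434 and none was called. CYP19A1 was above background on 3 liver and 7 gland arrays, and CYP21A2 on 12 and 11. Of the 2 probes of CYP17A1, the one above background on all arrays gave -0.57 and the other, on no array, 0.02. CYP11B1 lay toward the gland by -0.42 ± 0.05 (SE) on the mean of 3 probes. The probes gave -1.08, -0.19 and 0.0097, the last above background on no array, and taking the brightest probe of each gene made CYP11B1 the only member called higher in the gland. Of the other P450s, CYP2U1, a fatty acid hydroxylase, was 2.45 ± 0.14 (SE) higher in liver, and CYP20A1, an orphan P450, was -0.48 ± 0.06 (SE) in the direction of the gland.

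The conjugating enzymes were called for the liver in all 4 UGT and 3 of 7 SULT genes. UGT1A1, the bilirubin glucuronosyltransferase, ran from 11.13 to 12.53 (median 12.04) in liver and 5.93 to 6.25 (median 5.98) in the gland, 5.97 ± 0.13 (SE) apart, with 1 gland array above background and probe differences of 3.85 and 8.08. UGT1A6, UGT2B10 and UGT2A1 were above background on no gland array. UGT1A6, a phenol UGT, was at least 27.2-fold higher in liver, with liver values from 9.95 to 11.42 (median 10.79) (limma adjusted p = 5.83e-22). UGT2B10 was at least 17.6-fold higher, with liver values from 9.19 to 10.86 (median 10.02) (limma adjusted p = 7.45e-20). UGT2A1 was at least 13.5-fold higher, with liver values from 8.98 to 10.51 (median 9.66) (limma adjusted p = 4.05e-20). Folds of these genes are bounds, since the gland signal was not measured. By probe, the measured differences ran from 4.45 to 5.20 for UGT1A6, 2.81 to 6.04 for UGT2B10 and 2.85 to 4.89 for UGT2A1.

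SULT2A1, the hydroxysteroid and bile acid sulfotransferase, had the largest gap of the 7 sulfotransferases, from 12.76 to 13.80 (median 13.43) in liver and 5.93 to 6.24 (median 6.02) in the gland, 7.35 ± 0.08 (SE) apart, with 2 gland arrays above background. SULT1A1, the phenol sulfotransferase, was measured on all 13 gland arrays, at 11.89 ± 0.46 (SD) against 14.05 ± 0.36 in liver, 2.15 ± 0.16 (SE) apart. SULT1B1 was 2.14 ± 0.09 (SE) higher in liver. SULT1E1, the oestrogen sulfotransferase, reached 0.86 ± 0.10 (SE) and SULT2B1, the cholesterol sulfotransferase, 0.34 ± 0.11 (SE), both under 2-fold on the mean of their probes. Of the 4 probes of SULT1E1, 3 were above background on no gland array, with measured differences of 0.70 to 1.33, and the probe above background on all gave 0.45. The SULT2B1 probe above background on all arrays gave 0.0027, and the other, on 2 gland arrays, 0.69. The means depended on the scaling. When processed signals were divided by each array's 75th percentile, SULT1E1 was at 3.37 and SULT2B1 at 1.44, both called for the liver, and with the background-corrected signal scaled the same way they were at 0.08 and -0.20 and were not called. SULT1C3 was above background on every liver array and no gland array, and was at least 1.63-fold higher in liver (limma adjusted p = 2.35e-09), which is under 2-fold. Under those 2 scalings its measured difference was 3.63, called for the liver, and -0.18. Both are set against gland signal not above background and are not bounds. SULT4A1 was above background on neither tissue.

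Among the flavin monooxygenases, FMO5 was 3.07 ± 0.15 (SE) and FMO4 1.46 ± 0.05 (SE) higher in liver. FMO2, the lung-type enzyme, differed by 0.43 ± 0.08 (SE), and its 3 probes disagreed. The probe above background on all arrays gave -0.13, and the other 2, of another accession and above background on no gland array, gave 0.50 and 0.92. The mean was at 2.19 and called for the liver when processed signals were divided by each array's 75th percentile, and at -0.23 with the background-corrected signal treated so.

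**Figure D2:**
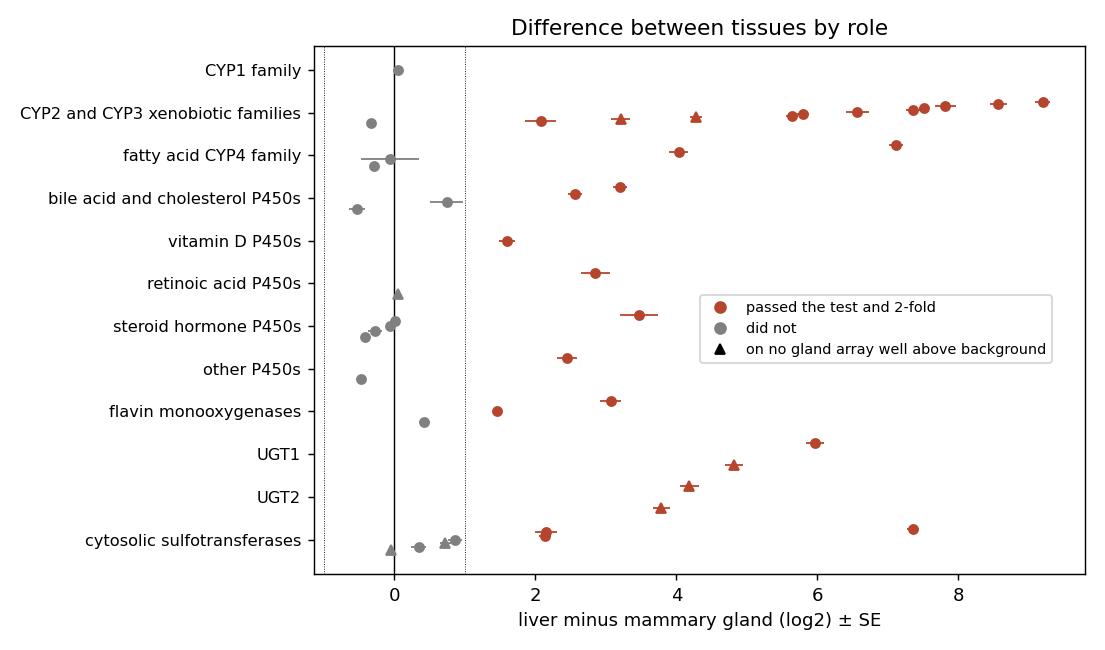
Liver minus gland difference of the same 45 genes (x axis, log2, point and SE bar) by role (y axis); red genes passed the test and 2-fold, grey genes did not, triangles had no gland array well above background (their measured difference is drawn, not the bound), and dotted lines mark 2-fold. The CYP2 and CYP3 genes reach 9.20, for CYP2E1, above background on 4 of 13 gland arrays, while the 17 grey genes lie between -0.53 and 0.86.

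By the gene order of the ARS-UCD2.0 assembly, 22 of the 46 genes lie in 8 groups of neighbours, members at most 20 genes apart. CYP4A11, CYP4A22 and CYP4B1 form 1 such group, with differences of 7.12, -0.29 and -0.06. CYP2B6 and CYP2S1 form another, at 2.08 and -0.33. FMO2 and FMO4 are neighbours too, at 0.43 and 1.46. In another group UGT2B10 and UGT2A1, with the bounds given above, lie near SULT1B1 and SULT1E1, at 2.14 and 0.86. Neighbours within these 4 groups thus fell on both sides of the call. The CYP3A, CYP2C, CYP2D and UGT1A groups were called for the liver throughout.

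The partners that supply electrons, haem and cofactors split between the tissues. Of 12 measured, 7 were called higher in liver and 2 in the gland. ALAS1, the first enzyme of haem synthesis, was 3.32 ± 0.10 (SE) higher in liver, POR 1.53 ± 0.06, CYB5A 2.61 ± 0.13 and the ferredoxin FDX1 2.14 ± 0.04, while FDXR, at 0.86 ± 0.08, CYB5R3 and SLC35B2 did not reach 2-fold, and PGRMC1, a haem-binding partner of P450s, was 2.25 ± 0.12 higher in liver. For glucuronidation, UGDH, which makes UDP-glucuronic acid, was 3.68 ± 0.12 higher in liver, but UGP2, the enzyme before it, was higher in the gland (liver minus gland -1.47 ± 0.13). For sulfation, the isoforms of the donor synthase went opposite ways, with PAPSS2 1.55 ± 0.12 higher in liver and PAPSS1 higher in the gland (liver minus gland -3.74 ± 0.18).

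Receptors and factors known to act on these genes also split. Of 13, 6 were called higher in liver, among them CAR (NR1I3, 4.53 ± 0.05), HNF4A (3.65 ± 0.03), LXRα (NR1H3, 3.42 ± 0.06), PXR (NR1I2) and FXR (NR1H4, 2.47 ± 0.11). NR1I2 was above background on no gland array, FXR on 1 and HNF4A on 9. VDR, the vitamin D receptor, was higher in the gland (liver minus gland -2.09 ± 0.14), and 6, among them PPARA at 0.77 ± 0.05 and ARNT at 0.19 ± 0.03, were not called.

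Other drug-metabolising enzymes gave 14 of 18 called for the liver and none for the gland, from ADH4, an alcohol dehydrogenase above background on 6 of 13 gland arrays, at 7.37 ± 0.18 and CES1, a carboxylesterase, at 5.85 ± 0.12 to TBXAS1, thromboxane synthase, at 1.23 ± 0.13. Uptake and efflux transporters gave 7 of 9 for the liver, with SLCO1B3, above background on 11 of 13 gland arrays, at 7.82 ± 0.17. ABCG2, the pump known to move drugs and riboflavin into milk, was the only transporter called for the gland, at liver minus gland -3.57 ± 0.10. Of the 8 bile acid and sterol partners 5 were called for the liver, among them SLC27A5 at 4.03 ± 0.07 and HSD3B7 at 2.99 ± 0.08. Of the other cell types checked, 3 of 5 leukocyte markers (CD14, CD163 and CD68) were higher in liver, both bile duct markers and 3 of 5 endothelial and stromal markers were higher in the gland, 1 of 4 adipocyte markers was called for each tissue, and none of 3 red cell markers was called. Their part in the members' differences was not tested.

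The count of 29 held without the 3 liver arrays scanned on another day, without any 1 cow, and with cow, slide or treatment in the fit. On each of the 4 slides that held both tissues, all 29 genes were at least 2-fold higher in liver. The scaling changed the split of calls. Scaling by the 75th percentile of each array moved the median difference of all names to -0.59 for the processed signal and -0.90 for the background-corrected signal, and the members then split 33 to 5 and 28 to 8 between liver and gland. Over all names the calls were then 12.7% for liver and 34.1% for the gland with the processed signal, and 6.96% and 42.7% with the background-corrected signal, so the members' gland calls, at 10.9% and 17.4%, were a smaller share than those of all names. The 33 added FMO2, SULT1C3, SULT1E1 and SULT2B1 to the 29, and the 28 lacked FMO4. The 5 were CYP11B1, CYP19A1, CYP46A1, CYP4A22 and SULT4A1, and the 8 added CYP17A1, CYP1B1 and CYP2S1. SULT4A1 was above background on no array of either tissue, so its gland call rests on background signal alone. Taken relative to the shifted median of all names, 34 and 30 members were at least 2-fold toward the liver, and 1 (CYP46A1) and 0 toward the gland. SULT1C3 and SULT1E1 were also called for the liver with an offset of 16 and with no background correction.

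Across cows, CYP4B1, a P450 of lung and bladder that acts on fatty acids and aromatic amines, fell into separate sets of cows in both tissues. It has 1 probe here. In the liver it lay at 6.09 to 6.37 in cows 37, 39, 40, 41, 43 and 57 and at 7.06 to 8.66 in cows 32, 36, 38, 42, 51 and 52. The low livers of cows 39, 40 and 57 were still well above background, and those of cows 37, 41 and 43 were not. In the gland the former 6 cows were again low, at 5.98 to 6.13, and not well above background on any of the 6 arrays. Cows 32, 38, 42, 51 and 52 were again raised, at 9.62, 8.39, 8.03, 7.65 and 8.001. Cow 36 differed between tissues, at 8.11 in liver and 6.30 in the gland, and cow 31, with a gland array alone, was at 6.88. Of the 12 paired cows 11 thus fell in the same set in both tissues, with the sets drawn after the values were seen. Because the values fall in separate sets, no correlation is given over all cows.

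Raised and low cows shared slides. Liver slides 1, 4 and 8 and gland slides 5 and 6 each held cows of both sets. The sets also cut through the treatments, with both kinds of cow among the control and B12 animals, all 3 B9 cows low and both paired B9 + B12 cows raised. Within treatment groups, the SD of CYP4B1 between cows was 1.12 in liver and 1.14 in the gland, at the percentile 99.5 and 99.8 of all names.

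**Figure D3:**
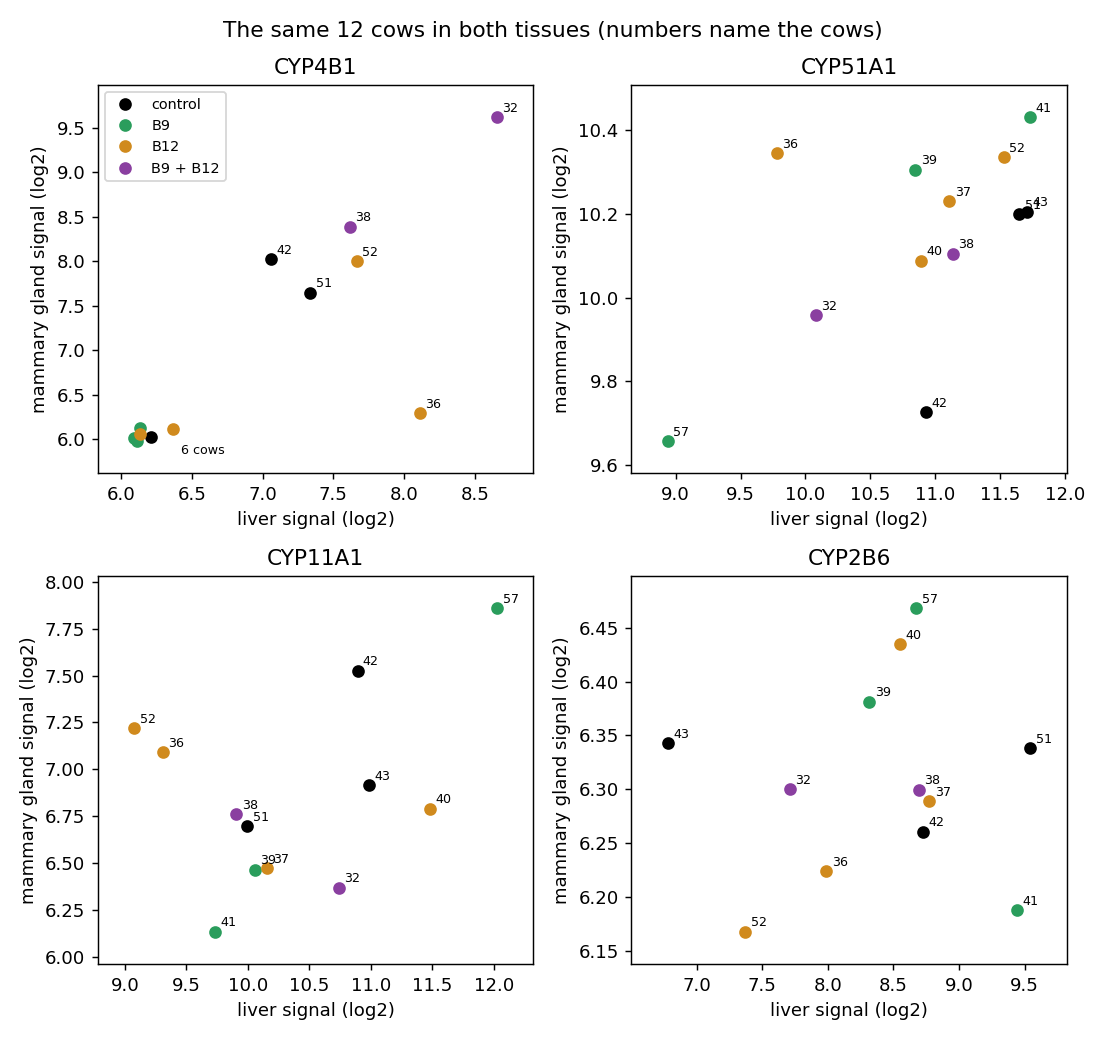
Liver signal (x axis) against gland signal (y axis) of the 12 cows with both arrays (log2, joint normalization) for 4 members; colours give the treatment and numbers the cows, and the 6 cows low for CYP4B1 in both tissues overlap in the lower left corner. CYP4B1 is raised in both tissues in cows 32, 38, 42, 51 and 52, and cow 36 is raised in liver alone.

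In liver 34 of 46 members, and in the gland 24, had an SD between cows above the middle of all names. The members' median SD between cows of a treatment group was 0.35 in liver, against 0.22 over all names, and 0.16 in the gland against 0.16. These SDs were not matched for signal, and all names include dim ones. The 8 members above background on no gland array lay at percentiles 0.05 to 43.0 of all names there. CYP2B6 (SD 1.15), CYP4B1, CYP11A1 (1.09) and CYP51A1 (1.02) led in liver, all above the percentile 99 of all names. CYP2B6 in liver was lowest in control cow 43 at 6.78 and highest in control cow 51 at 9.54. CYP11A1 was highest in B9 cow 57, at 12.03 in liver and 7.86 in the gland. CYP26A1 (0.70) and CYP11A1 (0.66) led after CYP4B1 in the gland.

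Whether a cow high in liver was high in the gland was tested on 28 members above background on at least 20 of the 24 paired arrays, with deviations from the treatment group means and all 1728 exchanges of cows within groups. By this exact permutation test 2 of 28 members had an unadjusted p of at most 0.05, against 8.83% of the 18116 names tested. None passed after adjustment over all names, where the share was 0%, and the median r of the 28 was 0.09. CYP51A1 had r = 0.75 (exact permutation p = 0.0353, adjusted p = 0.550, rho = 0.62 with p = 0.0579 and adjusted p = 0.596, r = 0.80 without the 2 cows farthest from the liver median). SULT1A1 had r = 0.82 (exact permutation p = 0.0422, adjusted p = 0.556, rho = 0.64 with p = 0.114 and adjusted p = 0.675, r = 0.64 without those cows). Of the next 3 by p, CYP11B1 had r = -0.54 and rho = -0.57 (exact permutation p = 0.0694 and 0.0787, adjusted p = 0.599 and 0.621, r = -0.59 without the 2 farthest cows). CYP3A74 had r = 0.48 and rho = 0.52 (exact permutation p = 0.0943 and 0.126, adjusted p = 0.636 and 0.687, r = 0.59 without the 2 farthest cows). CYP39A1 had r = 0.59 and rho = 0.53 (exact permutation p = 0.157 and 0.198, adjusted p = 0.703 and 0.744, r = 0.30 without the 2 farthest cows).

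The order of the cows for CYP51A1 in liver was set beside that for other genes of cholesterol synthesis. In the values normalized within liver it was lowest in cow 57 at 9.48, then in cow 36 at 10.44 and cow 32 at 10.77, and highest in cow 41 at 12.60. SQLE, squalene epoxidase, was also lowest in cow 57 (11.84), next in cow 36 (12.73), and highest in cow 41 (15.54). Over the 12 livers, as deviations from the treatment means, SQLE had r = 0.97 with CYP51A1 (exact permutation p = 5.79e-04, the smallest that 1728 exchanges can give), rho = 0.90 (exact p = 5.79e-04) and r = 0.91 without the 2 cows farthest from the median. LSS, lanosterol synthase, was at 6.92 in cow 57, 7.16 in cow 36 and 9.02 in cow 41, its lowest, next lowest and highest livers, and had r = 0.86 (exact p = 0.0324), rho = 0.58 (exact p = 0.118) and r = 0.61 without those cows.

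Of the 19842 names set against CYP51A1 in liver, 16.5% had an unadjusted exact p of at most 0.05 and none passed adjustment over all of them (adjusted p of 0.261 and 0.290 for SQLE and LSS). SQLE had the sixth highest r of these names. Without the 3 livers scanned on another day, r with CYP51A1 was 0.99 for SQLE and 0.97 for LSS. In the 13 glands SQLE had r = 0.85 with CYP51A1 (exact permutation p = 0.0150, adjusted p = 0.655, rho = 0.73) and LSS r = 0.25 (exact p = 0.364). The bile acid enzymes HSD3B7, ACOX2 and SLC27A5 had r of -0.39, 0.14 and 0.14 with CYP51A1 in liver (exact p = 0.440, 0.743 and 0.747). AKR1D1, another, had r = 0.48 (exact p = 0.179), and 0.97 without the slide scanned on another day. The relation was examined after values were seen, in the list of bile acid and sterol partners. 

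**Figure D4:**
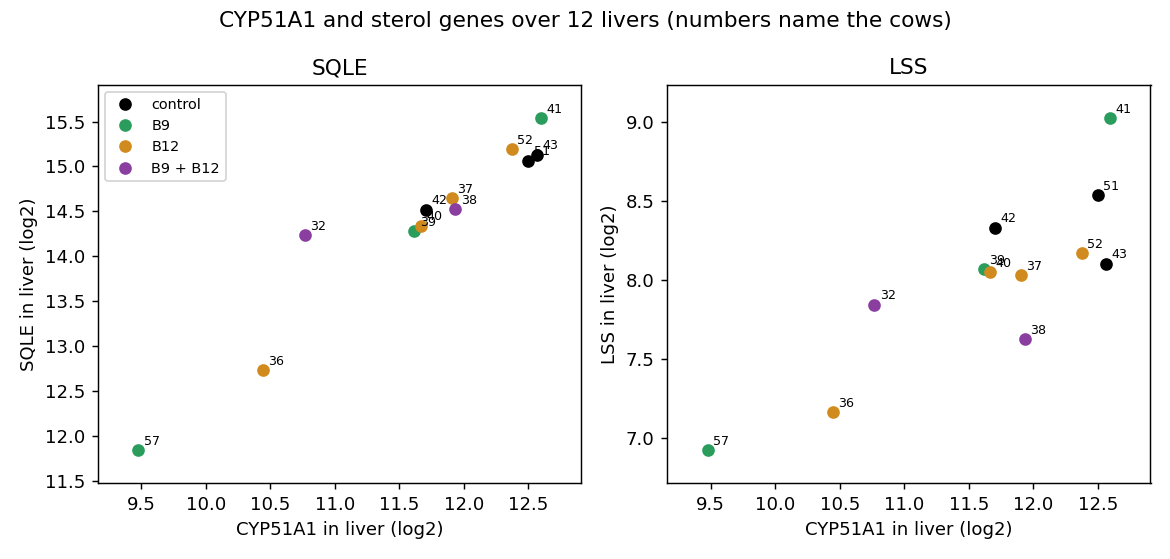
CYP51A1 (x axis) against SQLE and LSS (y axes) in the 12 livers (log2, processed values normalized within liver); colours give the treatment and numbers the cows. Cows 57 and 36 are lowest for all 3 genes and cow 41 is highest, with r of 0.97 for SQLE and 0.86 for LSS after treatment means are removed.

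In the processed values, normalized within each tissue, 0 of 46 members were called against control in the liver with B9, B12 or B9 + B12, or in the gland with any of them. Over all 27841 names the called share was 0% in every comparison except liver B12, at 0.00359% (1 name). At an unadjusted limma p of at most 0.05, the members passing were 0 with B9 (3.27% of all names), 0 with B12 (1.97%) and 5 with B9 + B12 (5.87%) in liver, and 1 (2.68%), 0 (2.44%) and 0 (2.05%) in the gland. Cyber-T, the regularised test of the study's methods, likewise called 0 members in each of the 6 comparisons, and 2, 36 and 18 names in liver and 3, 5 and 5 in the gland overall. The median SE of a member's difference was 0.25 to 0.29 in liver and 0.12 to 0.13 in the gland, so with 2 to 4 arrays a group differences of that size were not detectable. These comparisons share their control cows within a tissue.

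The 5 liver genes at or under that unadjusted limit with B9 + B12 all lay below control, with an adjusted p of 0.656 each. FMO2 was at 6.27 and 6.53 in the 2 treated cows against 7.27, 7.03 and 7.30 in controls, a difference of -0.80 ± 0.20 (SE, limma unadjusted p = 0.00213). FMO4 was at 7.93 and 7.58 against 8.08, 8.20 and 8.45, a difference of -0.49 ± 0.16. CYP4V2, the fatty acid hydroxylase of the endoplasmic reticulum, was at 10.999 and 11.86 against 12.17, 12.14 and 12.67, a difference of -0.89 ± 0.34. SULT2A1 was at 13.71 and 14.26 against 14.69, 14.14 and 14.79. CYP2R1 was at 8.48 and 9.31 against 9.74, 9.52 and 9.35. Both treated livers lay below all controls for 4 members, these genes without SULT2A1, and above them for 4 others, against 9.67% and 12.5% of all names. Leaving out 1 array moved CYP4V2 between -1.32 and -0.46, CYP2R1 between -1.05 and -0.22 and SULT2A1 between -0.83 and -0.28. It moved FMO2 between -0.93 and -0.67 and FMO4 between -0.67 and -0.31.

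Cow 32, the lower of the treated pair for all of these but FMO4, lay on the slide scanned on another day and its array stood apart. Without cow 32 the members at unadjusted p of at most 0.05 were 3 (FMO2, FMO4 and SULT1E1) among 507 of all names, and without that slide 2 (FMO2 and FMO4) among 457. Without cow 38 they were 6 among 7122, against 5 among 1634 with both cows. Each of these fits takes the lone treated cow to vary like the other groups. Over all 46 members the B9 + B12 difference in liver ran from -0.91 for CYP51A1 (-0.91 ± 0.81) to 1.82 for CYP4B1, with 22 above and 24 below zero. Without cow 32 the CYP51A1 difference was -0.32. Among genes measured on all arrays of both groups the highest were SULT2B1 (0.53 ± 0.46), CYP3A74 (0.37 ± 0.26) and UGT2B10 (0.29 ± 0.52), none past the test. SULT2B1 was at 8.42 and 7.38 in the 2 cows, cow 32 the higher, and its difference without cow 32 was 0.010. Leaving out 1 array moved CYP3A74 between 0.15 and 0.60.

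With B9 in liver, the largest differences among genes measured throughout were CYP2B6 at 0.66 ± 0.82, SULT1C3 at 0.45 ± 0.30 and SULT2B1 at 0.45 ± 0.41 above control, and CYP51A1 at -1.03 ± 0.72, CYP2C89 at -0.92 ± 0.46 and CYP4V2 at -0.54 ± 0.31 below. Without cow 57, whose array stood apart, CYP4V2 was at -0.19 and CYP2C89 at -0.56, SULT1C3 was at 0.023 and SULT2B1 at 0.018. CYP2B6 turned to -0.38 without control cow 43, the cow of the other scan day. CYP51A1 was at 11.61, 12.60 and 9.48 in the 3 B9 cows against 11.71, 12.57 and 12.50 in controls, and cow 57 alone was below the control range by over 2-fold. Without cow 57 its difference was -0.15. Without cow 41, 7 members passed at unadjusted p, CYP2C23, CYP2C89, CYP2D14, CYP2D43, CYP4V2, CYP51A1 and SULT1C3, against 0 with all cows, while the names passing went from 910 to 2337 of 27841. Leaving out control cow 43 gave 4 members among 574 names, cow 39 gave 2 among 1774, cow 42 gave 2 among 921 and cow 51 gave 1 among 774. None passed after adjustment.

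With B12 in liver, 35 of 46 members lay below control and 11 above, with a median of -0.09 against -8.83e-05 over all names. CYP11A1 was at -0.72 ± 0.73, CYP2C89 at -0.72 ± 0.43 and CYP51A1 at -0.66 ± 0.68, while among genes above background on all arrays compared CYP3A74 (0.21 ± 0.21), UGT2B10 (0.19 ± 0.43) and CYP4A11 (0.18 ± 0.28) were highest. Leaving out 1 array moved CYP11A1 between -1.28 and -0.37, CYP2C89 between -1.07 and -0.51 and CYP51A1 between -0.94 and -0.28. The lowest adjusted p of a member was 1.00, and leaving out 1 array left 0 or 1 members at the unadjusted limit (CYP2C90 without cow 51, among 516 names, and CYP2C89 without cow 52, among 693). Without the slide scanned on another day 3 members among 499 names were at it, CYP2B6, SULT1B1 and SULT1E1. CYP27A1, the bile acid enzyme, differed by -0.26 to -0.17 in the 3 liver comparisons.

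In the gland, FMO4 with B9 was the only member at unadjusted p of at most 0.05, at 5.38, 5.58 and 5.34 against 5.24, 5.27 and 5.20 (difference 0.20 ± 0.08, limma unadjusted p = 0.0292, adjusted p = 1.00). Leaving out 1 array gave 0 to 4 members, 4 without control cow 43, B9 cow 41 or B9 cow 57 (among 770, 988 and 1087 of all names, against 747 with all arrays) and 0 without control cows 42 or 51 (741 and 669 names). SULT1A1 was highest among genes measured throughout with B9 (0.51 ± 0.33) and with B9 + B12 (0.36 ± 0.33), and turned below control with B12 and with B9 + B12 once control cow 51 was left out. CYP2R1 (0.38 ± 0.21) and CYP2U1 (0.28 ± 0.39) followed with B9. Among the same genes CYP26A1 was lowest with B9 (-0.72 ± 0.50) and with B9 + B12 (-0.92 ± 0.50), where its 3 controls alone spread from 5.17 to 7.26. CYP17A1 and CYP4V2 lay at -0.40 ± 0.24 and -0.35 ± 0.26 with B9. With B9, leaving out 1 array moved SULT1A1 between 0.05 and 0.74, CYP2U1 between 0.07 and 0.56, CYP26A1 between -1.32 and -0.28 and CYP4V2 between -0.55 and -0.07. With B9 + B12 it moved CYP26A1 between -1.52 and -0.47. CYP51A1 and CYP27A1 differed by -0.09 to 0.20 over the 3 gland comparisons.

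With B12 in the gland, among genes above background on all arrays compared, CYP3A74 (0.30 ± 0.15), CYP3A76 (0.30 ± 0.20) and SULT1A1 (0.28 ± 0.31) lay highest and CYP4V2 (-0.31 ± 0.24), CYP17A1 (-0.26 ± 0.23) and CYP26A1 (-0.20 ± 0.46) lowest. With B9 + B12, among such genes, CYP2R1 (0.20 ± 0.21) and CYP3A76 (0.16 ± 0.21) lay above and CYP11A1 (-0.29 ± 0.47) and CYP4V2 (-0.25 ± 0.26) below. Leaving out 1 array gave 0 or 1 members at the unadjusted limit in these comparisons, among 535 to 961 of all names. It moved CYP4V2 with B12 between -0.51 and -0.03 and CYP11A1 with B9 + B12 between -0.58 and -0.01. With B12 it also moved CYP3A76 between 0.17 and 0.41 and CYP17A1 between -0.44 and -0.14.

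CYP4B1 is named here after its values were seen. In liver it lay at -1.39 ± 0.80 with B9, where 2 of the 3 treated arrays were above background, and at 1.82 ± 0.89 with B9 + B12. In the gland it lay at 1.19 ± 0.81 with B9 + B12. None passed the test (limma adjusted p 0.656 to 1.00). With B9 none of the 3 gland arrays was above background for its probe, and with B12 1 of 4 was, so no difference is given there. With 2 to 4 cows a group, raised cows and treatment cannot be told apart.

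**Figure D5:**
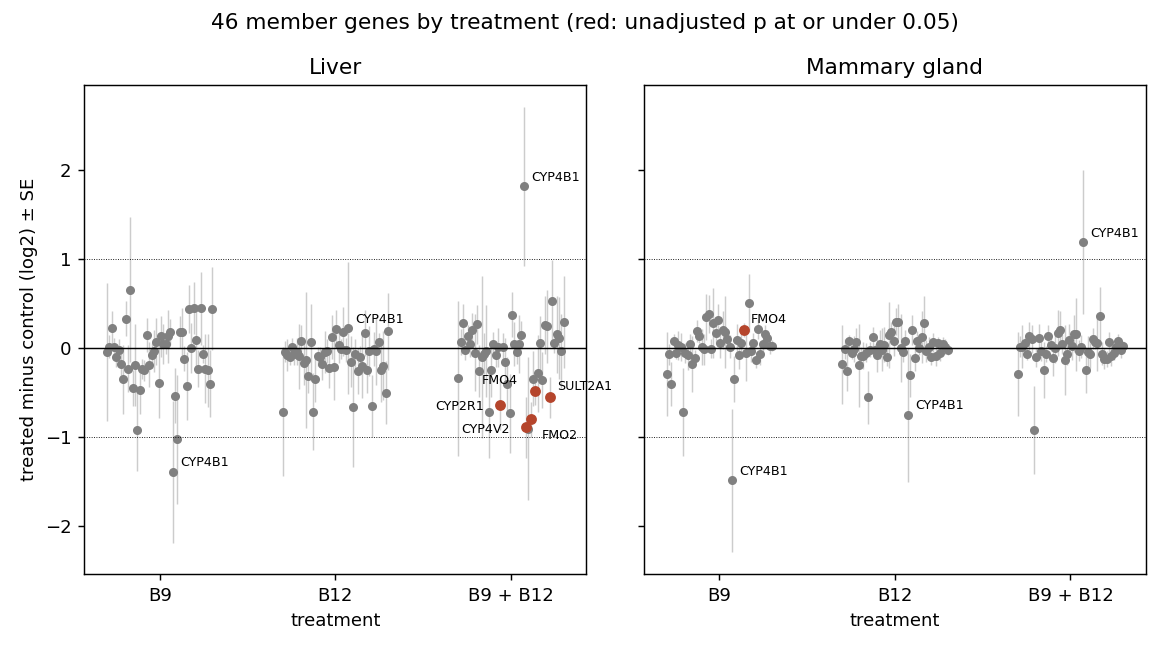
Treated minus control difference (y axis, log2, point and SE bar) of each of the 46 members, in alphabetical order within each treatment (x axis), for liver and gland; red points had an unadjusted limma p of at most 0.05 and dotted lines mark 2-fold. The points of liver spread more widely than those of the gland, and CYP4B1 reaches 1.82 in liver with B9 + B12. In the gland its B9 point is set by arrays not above background.

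Interaction contrasts asked whether B9 acted alike with and without B12. No member passed after adjustment, and the called share over all names was 0% in both tissues. At unadjusted p of at most 0.05 there were 4 members in liver, FMO2, CYP4B1, CYP2C23 and CYP2D14 (3.57% of all names), and 2 in the gland, CYP4B1 and CYP39A1 (3.46%). CYP4B1 had an interaction of 2.99 ± 1.16 (SE, limma unadjusted p = 0.0266, adjusted p = 1.00) in liver. In the gland its B9 arrays were not above background, so no size is given. FMO2 had -0.92 ± 0.26 in liver. The difference of treatment effects between tissues was called for no member with B9, B12 or B9 + B12 (0%, 0.00359% and 0% of all names), and at unadjusted p for 2 members with B9 (2.47% of names), 0 with B12 (1.79%) and 5 with B9 + B12 (4.41%), FMO4, SULT2A1, CYP2R1, CYP4V2 and FMO2, all lower in liver.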

How the data were processed

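Total RNA of liver and mammary biopsies was hybridised by the study to Agilent bovine 4x44K arrays with a single dye (25 arrays, 8 slides). The scanner files hold intensity values deposited by the authors for 45220 spots (median signal, local background and processed signal), with call columns, another unit deposited per the file headers, that mark spots well above background, saturated or outlying. The file headers name Feature Extraction 10.7.3.1, whereas the submitters' processing notes name 9.1. The series matrix holds log2 values deposited by the authors, background-corrected with normexp and normalized between arrays within each tissue; they differed from normexp with offset 16 and quantiles within tissue by a median of 0.00195 in liver and 0.000999 in the gland. Depth has no meaning for arrays, whose number limits precision.

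Probes were named through unversioned RefSeq accessions (assembly ARS-UCD2.0), and 23509 of 43653 probes matched 11068 symbols. The array's own build differs, so no coordinates are given. For tissues, median signals were corrected by normexp (offset 50) and quantile normalized over all 25 arrays, outlier spots were left out, and spots, then probes, were averaged per gene; 1 member value was missing as an outlier, which was taken up by centring each probe within its tissue. For treatments, the deposited log2 values were joined by feature number. Tests used limma 3.58.1 in R 4.3.3 (lmFit, eBayes) with Benjamini-Hochberg adjustment over all 27841 names, and a call needed an adjusted p of at most 0.05 and 2-fold. A gene above background on no array of a tissue has only a bound, the bright mean over the mean, per array, of the higher of its own value and the lowest signal among probes well above background. The cow correlation used exact permutation within treatment groups and was adjusted over all names tested. The script was tested on simulated data.

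The members, gene lists and tests were chosen with earlier results of these data known. Named in full were the 10 called genes with the largest liver difference among those measured in both tissues, genes with a bound, CYP27A1 and CYP51A1, any called gene and the 3 highest and 3 lowest per treatment among genes above background on all arrays compared, and the 5 smallest p of the cow correlation. FMO4, SULT2A1, CYP2R1 and CYP4B1 in the treatments, the other members, and the relation of CYP51A1 to sterol genes were added after their values were seen. Arrays of a cow in both tissues came from the same animal, so cow pairs them; the deviations of a cow's 2 arrays from their group means correlated by -0.28 to 0.23 (median 0.05), above 0.1 in 4 of 12 cows. Treatments share no cow. Values of 1 member and of some partner genes are not reported here, and the counts include them. Alternatives were other background corrections and scalings, a filter on probes above background on at least 2 arrays, the brightest probe, Cyber-T (window 101, confidence 10), cow and slide as blocks, values within slides and groups, and leaving out each array.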

Additional observations from a re-analysis of the deposited data

Results flagged for a closer look

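In the B12 groups of 4 cows, 79 sets of member values (processed log2 values, genes above background on at least 1 array) were searched for a cow far from the other 3 by Dixon's criterion, which chance alone meets in about 1 of 20 sets. It was met in 6 sets. CYP11B1 in the gland was at 7.05 in cow 40 against 6.70 to 6.75 in the other 3. CYP21A2 in the liver was at 5.86 in cow 37 against 5.43 to 5.47 in the other 3. CYP27A1 in the gland was at 9.18 in cow 52 against 8.98 to 9.003 in the other 3. CYP2C87 in the liver was at 10.47 in cow 52 against 9.60 to 9.71 in the other 3. CYP4B1 in the gland was at 7.23 in cow 52 against 4.85 to 5.21 in the other 3. SULT2A1 in the gland was at 5.03 in cow 40 against 4.70 to 4.72 in the other 3. CYP4B1 in cow 52 is the raised value described above, and cow 52 was raised in liver as well. CYP2C87, a CYP2C gene, was highest in the same cow in liver. CYP21A2 in liver came from cow 37, whose array lay on the slide scanned on another day. SULT2A1 and CYP11B1 in the gland were both highest in cow 40 among the B12 cows. No member passed adjustment in the tests of a difference in treatment effect between the tissues or of the B9 by B12 interaction.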

How the results depend on the processing

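The 29 genes called for the liver became 28 to 33 under other backgrounds, scalings and probe rules and 28 to 30 within single treatment groups. With cow as a replicate block, fixed or random, they stayed 29 and 0 for the gland, and the difference of effects between tissues stayed at 0; the block changed no other call. Leaving out each cow gave 29 to 29 and 0 to 0. Genes called for the gland were 0, but 5 with the processed signal and 8 with normexp signal scaled by the 75th percentile, where the median of all names had shifted, and 1 with the brightest probe (CYP11B1). FMO4 lost its call with the normexp signal scaled by the 75th percentile (0.86), and CYP2R1 within B9 + B12 cows (1.15); the cause was not tested. Treatments gave 0 called members under every alternative run and with each array left out, and interactions and cow correlations under the alternatives run for them. Uncalled differences (log2) that changed sign are given by alternative. Processed signal scaled by the 75th percentile gave CYP26B1 liver minus gland -0.15, CYP4B1 liver minus gland 0.12, CYP1B1 liver minus gland -0.46, CYP27A1 liver B9 + B12 versus control 0.044, CYP4V2 mammary gland B9 + B12 versus control 0.0050. Normexp offset 50 scaled by the 75th percentile gave SULT1C3 liver minus gland -0.18, CYP26B1 liver minus gland -0.98, FMO2 liver minus gland -0.23, SULT2B1 liver minus gland -0.20, CYP1B1 liver minus gland -1.01. Brightest probe of each gene gave FMO2 liver minus gland -0.13, CYP3A74 liver B12 versus control -0.010, CYP3A74 liver B9 + B12 versus control -0.099. Treatment as a covariate gave CYP4B1 liver minus gland 0.045. Slide as a fixed block gave CYP4B1 liver minus gland 0.10, CYP11A1 liver B12 versus control 0.17, CYP27A1 liver B12 versus control 0.098, CYP4B1 liver B12 versus control -1.22, UGT2B10 liver B9 + B12 versus control -0.065. Within control cows gave CYP26B1 liver minus gland -0.049. Within B9 cows gave CYP4B1 liver minus gland 0.070, CYP17A1 liver minus gland 0.065. Within B12 cows gave CYP4B1 liver minus gland 0.45. Without the slide scanned on another day (chosen after seeing the data) gave CYP2B6 liver B9 versus control -0.38, CYP4A11 liver B12 versus control -0.016. With each array left out, differences crossed zero in these ranges: CYP4B1 liver minus gland -0.22 to 0.020, CYP2B6 liver B9 versus control -0.38 to 1.41, CYP3A74 liver B12 versus control -0.015 to 0.44, UGT2B10 liver B12 versus control -0.26 to 0.69, CYP4B1 liver B12 versus control -0.35 to 0.75, CYP27A1 liver B12 versus control -0.28 to 0.055, UGT2B10 liver B9 + B12 versus control -0.15 to 0.79, CYP51A1 mammary gland B9 versus control -0.071 to 0.32, CYP27A1 mammary gland B9 versus control -0.22 to 0.070, CYP27A1 mammary gland B12 versus control -0.23 to 0.063, SULT1A1 mammary gland B12 versus control -0.17 to 0.51, CYP26A1 mammary gland B12 versus control -0.80 to 0.25, CYP4V2 mammary gland B9 + B12 versus control -0.45 to 0.034, CYP51A1 mammary gland B9 + B12 versus control -0.20 to 0.035, SULT1A1 mammary gland B9 + B12 versus control -0.096 to 0.59, CYP27A1 mammary gland B9 + B12 versus control -0.031 to 0.26, CYP2R1 mammary gland B9 + B12 versus control -0.021 to 0.52, CYP3A76 mammary gland B9 + B12 versus control -0.0084 to 0.34. The number of arrays limits these values.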
